A study of Homo sapiens with 6 samples.

Results

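Heparan sulfate proteoglycans are core proteins that carry heparan sulfate, a long sulfated sugar chain, and the transcripts of 10 of their genes were examined in U87, an established human glioblastoma cell line. The genes were taken by family from the 60612 rows of the deposited table: the syndecans SDC1, SDC2, SDC3 and SDC4, the glypicans GPC1, GPC3, GPC4 and GPC6, HSPG2 (perlecan) and AGRN (agrin). SDC4 and HSPG2 are also genes of the study's heat map of genes lower after PRMT6 knockdown, which was drawn from this same contrast, so their values are given as a description without a test. The other 8 genes were taken by family, and the set was chosen with earlier results of these data known. GPC2 and GPC5, the remaining glypicans, were not among the 10 genes and are described beside them.

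RNA was sequenced from 3 libraries of U87 cells given a scramble shRNA (NC) and 3 libraries of U87 cells given an shRNA against PRMT6 (shPRMT6), an arginine methyltransferase. Both groups received lentivirus with polybrene and grew in DMEM with fetal bovine serum, so the groups share the viral delivery of a hairpin and differ in its target. The study's methods call the libraries independent replicates, and the sources do not say which PRMT6 hairpin the 3 shPRMT6 libraries carried or whether it was the same one in each. The total count per library ranged from 56388161 to 75887696. No 2 libraries of a group were the same library deposited again, since chi-square over degrees of freedom was 53.05 to 86.34 for each such pair, far above the noise of sampling. PRMT6 itself had 522, 606 and 449 counts in NC and 227, 282 and 355 in shPRMT6, a log2 fold change of -0.87 (SE 0.19, edgeR adjusted p = 0.0225), with no overlap between the groups. An exact two-sided permutation test on its scaled counts gave p = 0.1, the smallest that 3 against 3 libraries allow. The edgeR call for PRMT6 was lost without NC replicate 1, shPRMT6 replicate 1 or shPRMT6 replicate 2 (adjusted p 0.0588 to 0.0713), and with limma on log2(FPKM + 1) without the FPKM filter (adjusted p = 0.0578).

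The cell line was checked against markers. VIM stood at 1159 to 1357 FPKM and S100A6 at 614 to 848 FPKM, whereas GFAP, the astrocytic intermediate filament, was at or below 0.0647 FPKM in every library. NES was at 5.74 to 6.94 FPKM and CD44 at 38.3 to 54.3 FPKM over all libraries. FN1 (fibronectin), another marker of mesenchymal glioblastoma lines, differed between the groups, at 143 ± 15.7 FPKM in NC and 86.9 ± 2.21 FPKM in shPRMT6 (SD, n = 3; log2 fold change -0.72, SE 0.08, edgeR adjusted p = 0.00246), and its part in the results was not tested. Markers of leukocytes, endothelium, epithelium, neurons and oligodendrocytes summed to 5.46 to 5.70 FPKM in NC and 5.25 to 5.92 FPKM in shPRMT6, most of it SNAP25 (4.42 to 5.15 FPKM), and 3 to 5 of these 11 markers were at 0 counts in each library. The only one of them past the threshold, CDH1, did not exceed 0.103 FPKM. PECAM1 was at 0.278 to 0.347 FPKM in NC and 0.398 to 0.569 FPKM in shPRMT6, without overlap, and did not pass (edgeR adjusted p = 0.0544). FPKM is a count divided by the length of the transcript and by the size of the library, and it is the scale on which levels of different genes are compared here. Bulk libraries cannot tell fewer cells with a transcript from less transcript per cell.

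Heparan sulfate chains are built in the Golgi on serine residues of the core protein, and they hold growth factors, chemokines and matrix proteins at the cell surface. Syndecans cross the membrane, glypicans are tethered to it by a lipid anchor, and perlecan and agrin are secreted into basement membranes. In the brain and in gliomas these proteins are known as co-receptors for fibroblast growth factors, Wnt ligands and Hedgehog, and as parts of the vascular matrix.

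The start-site regions of 4 members are shown because SDC4, HSPG2 and SDC1 were the 3 members with the lowest values in shPRMT6 relative to NC, while GPC6 stood at nearly the same level in both groups and differs in base composition. The sequences are the 250 bases before the start of each gene from RefSeq on GRCh38.p14, 5′ to 3′ on the gene's strand. They lie at chr20:45348425-45348674 (minus strand) for SDC4, chr1:21937311-21937560 (minus strand) for HSPG2, chr2:20225476-20225725 (minus strand) for SDC1 and chr13:93226557-93226806 (plus strand) for GPC6. Capitals mark the GC box (GGGCGG or its reverse complement CCGCCC) in the first 3 sequences and TATAAA in GPC6.
SDC4: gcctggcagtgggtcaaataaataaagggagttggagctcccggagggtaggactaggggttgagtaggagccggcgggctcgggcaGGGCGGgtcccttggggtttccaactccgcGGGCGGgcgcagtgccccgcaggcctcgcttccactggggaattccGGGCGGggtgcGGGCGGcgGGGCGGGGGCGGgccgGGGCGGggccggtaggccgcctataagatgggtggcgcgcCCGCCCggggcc
HSPG2: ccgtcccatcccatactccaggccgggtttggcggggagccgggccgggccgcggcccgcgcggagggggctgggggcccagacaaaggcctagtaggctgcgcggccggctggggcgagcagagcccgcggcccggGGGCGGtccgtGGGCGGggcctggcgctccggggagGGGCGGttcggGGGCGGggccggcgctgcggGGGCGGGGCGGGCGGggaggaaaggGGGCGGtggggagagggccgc
SDC1: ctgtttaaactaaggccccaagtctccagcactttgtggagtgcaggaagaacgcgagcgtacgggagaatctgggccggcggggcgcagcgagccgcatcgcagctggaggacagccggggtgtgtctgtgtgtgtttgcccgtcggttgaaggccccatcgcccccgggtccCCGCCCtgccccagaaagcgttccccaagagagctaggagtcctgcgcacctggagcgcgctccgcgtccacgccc
GPC6: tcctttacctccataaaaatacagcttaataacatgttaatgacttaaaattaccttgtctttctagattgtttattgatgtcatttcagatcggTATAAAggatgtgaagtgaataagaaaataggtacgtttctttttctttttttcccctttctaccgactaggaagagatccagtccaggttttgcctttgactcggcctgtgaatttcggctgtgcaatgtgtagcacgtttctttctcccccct

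Counted over the whole 300-base window, which adds 50 bases after the start, SDC4 held 8 GC boxes, HSPG2 held 10 and SDC1 held 1, with some of those in HSPG2 overlapping, and GPC6 held none. The GC box occurs in 45% of the 35116 windows of that length in the table, and TATAAA in 11.5%. The windows of SDC3, GPC1 and GPC4, which are not shown, held 6, 4 and 2 GC boxes, and no window was used here for SDC2, GPC3 and AGRN. The G and C content was 74% for SDC4, 83.3% for HSPG2, 67.7% for SDC1 and 40% for GPC6, against a median of 58.7% over all windows. For SDC3, GPC1 and GPC4 it was 84%, 83.3% and 74.7%. On both strands, 4 other motifs had no match in the windows of SDC4, HSPG2, SDC1 and GPC6. These were the E-box (CACGTG, in 7.26% of all windows), the AP-1 site (TGANTCA, in 7.71%), the cyclic AMP response element (TGACGTCA, in 1.85%) and the CCAAT box (in 34.6%). The table has a second start for SDC1, not shown, whose window also held 1 GC box. The presence of the letters and the base composition are a description only. SDC3 and GPC1, neither of them called lower, also held GC boxes and were rich in G and C. A link between the letters or the base composition and the levels was not tested.

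Of the 10 genes, 8 passed the filter on low counts and were fitted, and GPC3 and GPC4 were not. Across all 18106 genes fitted with edgeR, 18.6% passed an adjusted p of 0.05 (9.06% lower and 9.51% higher in shPRMT6), and the median log2 fold change was -0.01. SDC4 and HSPG2 were both lower. Among the other 6 fitted members, SDC1 was lower, SDC2 was higher, and SDC3, GPC1, GPC6 and AGRN did not pass. The values of NC and shPRMT6 did not overlap for 4 of these 6 (SDC1, SDC2, GPC1 and AGRN), and 40.2% of all fitted genes showed no overlap.

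In NC cells the order of the levels on the FPKM scale began with SDC4, followed by SDC1, AGRN and SDC2, each separated from the next by ranges that did not overlap. SDC3, HSPG2 and GPC1 followed with overlapping ranges, then GPC6. In shPRMT6 cells SDC4 was still the highest, and AGRN, SDC2 and SDC1 followed with overlapping ranges. By group mean SDC3 and GPC1 came next, also overlapping, then GPC6, and HSPG2 was the lowest of the expressed members. The range of SDC3 (1.36 to 7.68 FPKM) also spanned those of GPC6 and HSPG2. In shPRMT6 replicate 1, SDC3 lay below HSPG2 (1.36 against 2.18 FPKM). On scaled counts per kilobase of all annotated exons, the order in NC was the same. In shPRMT6 on that scale SDC1 ranked above SDC2, AGRN overlapped neither of them, and GPC1 and GPC6 overlapped. With the longest coding transcript as the length, an alternative added after the data had been seen, GPC1 ranked 5th in both groups, above SDC3. On that length the ranges of SDC1 and AGRN overlapped in NC, and those of AGRN and SDC2 did not overlap in shPRMT6.

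**Figure D1:**
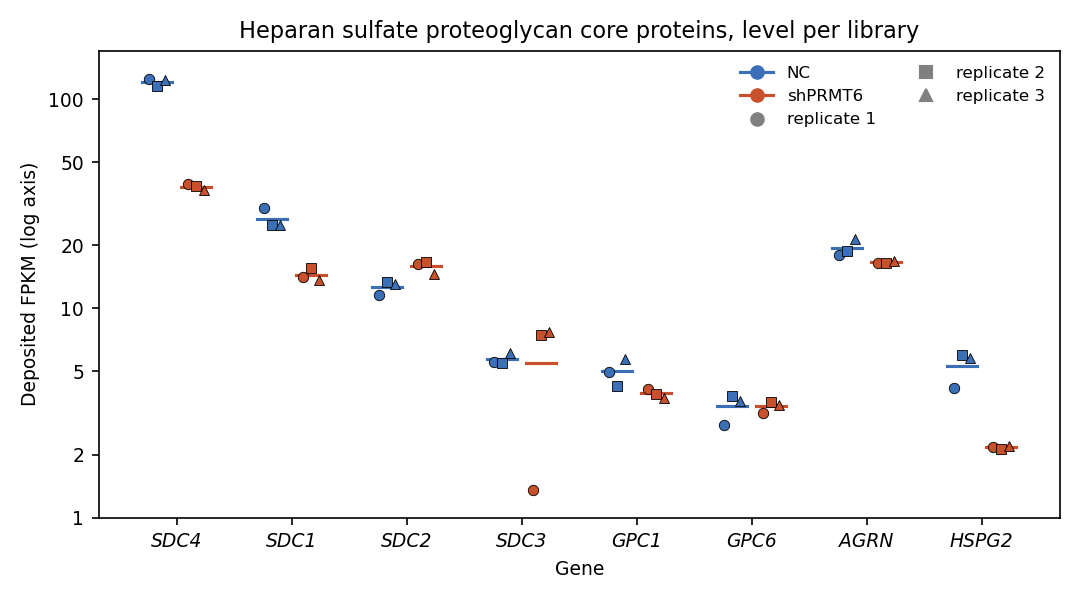
Deposited FPKM (log axis) of the 8 expressed members in each library, with circles, squares and triangles for replicates 1, 2 and 3, and bars for group means (n = 3). SDC4 fell from 115 to 125 FPKM in NC to 36.9 to 39.3 FPKM in shPRMT6, and the single low point of SDC3 is shPRMT6 replicate 1 at 1.36 FPKM.

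SDC4 (syndecan-4, a focal adhesion receptor that works with integrins; chr20:45325288-45348424 on GRCh38) had 21948, 27213 and 23570 counts in NC replicates 1 to 3 and 7722, 7278 and 7708 in shPRMT6 replicates 1 to 3. On the FPKM scale the NC libraries stood at 125, 115 and 123, and the shPRMT6 libraries at 39.3, 38.3 and 36.9. All 3 shPRMT6 libraries were far below all 3 NC libraries, and the mean went from 121 ± 5.19 to 38.2 ± 1.17 FPKM (SD, n = 3). The shPRMT6 mean of the scaled counts was 31.3% of the NC mean, a log2 fold change of -1.67 (SE 0.06), given as a description.

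SDC1 (syndecan-1, a receptor best known from epithelia and plasma cells; chr2:20200797-20225433) was measured at 30.0, 25.2 and 25.1 FPKM in NC and at 14.2, 15.6 and 13.7 FPKM in shPRMT6. Every shPRMT6 library lay below every NC library. Its log2 fold change was -0.89 (SE 0.10, edgeR adjusted p = 0.00256), and it passed the threshold in 15 of 15 alternative fits, with values between -0.95 and -0.80.

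SDC2 (syndecan-2, a receptor of mesenchymal cells) moved in the opposite direction. It stood at 11.5, 13.4 and 13.04 FPKM in NC and at 16.4, 16.6 and 14.7 FPKM in shPRMT6, with no overlap. The log2 fold change was 0.32 (SE 0.08, edgeR adjusted p = 0.0438), and the call rested on all libraries together: it was lost without NC replicate 1, NC replicate 3 or any 1 of the 3 shPRMT6 libraries (adjusted p 0.0554 to 0.145), with the sign kept in every fit.

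SDC3 (syndecan-3, the syndecan of neural tissue; chr1:30869467-30908761) had 2629, 3522 and 3165 counts in NC and 722, 3854 and 4333 in shPRMT6. In FPKM this was 5.54, 5.52 and 6.10 in NC, and 1.36, 7.49 and 7.68 in shPRMT6. Replicate 1 of shPRMT6 was the lowest of the 6 libraries and replicates 2 and 3 were the highest, so the shPRMT6 libraries lay on both sides of NC. Over all libraries the log2 fold change was -0.06 (SE 0.57, 95% interval -1.42 to 1.29, edgeR adjusted p = 0.954), an interval too wide to give a direction. Without shPRMT6 replicate 1 it was 0.40 (SE 0.08, edgeR adjusted p = 0.0393), past the threshold and higher in shPRMT6, in a fit in which 5.06% of all genes were called higher.

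No other fitted member was as far from the other shPRMT6 libraries in replicate 1. SDC1, SDC2 and HSPG2 lay between the other shPRMT6 libraries on the FPKM scale, and SDC4 and GPC1 were the highest of the 3. GPC6 (3.16 against 3.57 and 3.47 FPKM) and AGRN (16.42 against 16.43 and 16.91 FPKM) were the lowest of the 3, by small margins. A count added after SDC3 had been seen took genes with at least 5 CPM (counts scaled to library size) that lay more than 2-fold below the lowest of the other 5 libraries. There were 30 such genes in shPRMT6 replicate 1, SDC3 among them, and 23 to 39 in each of the other libraries. GENCODE 29 places no other gene's exons over those of SDC3, and no 75-base stretch of it is shared with another gene. The cause of the low value was not tested.

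**Figure D2:**
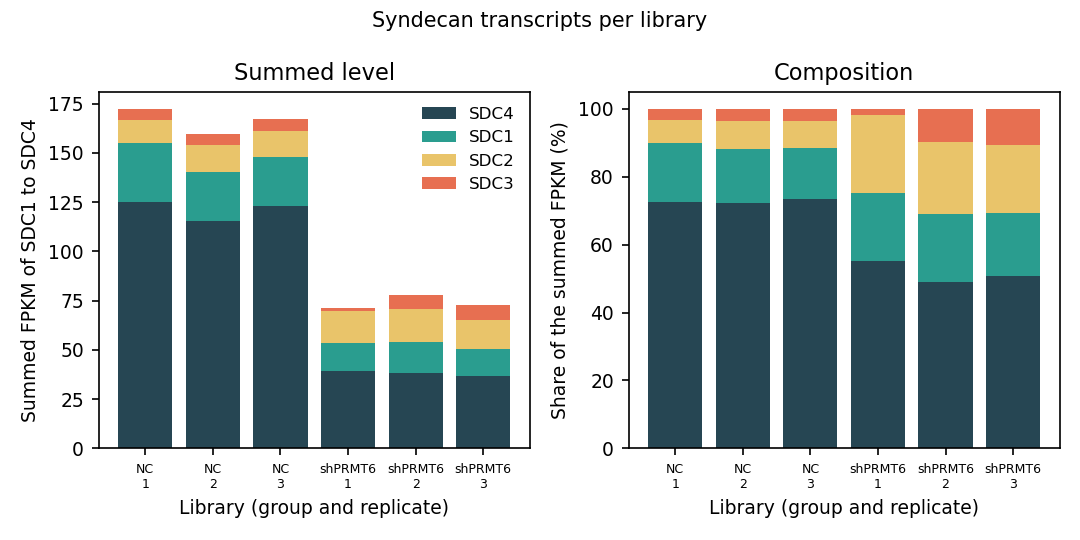
Summed FPKM of the 4 syndecans (left, stacked bars) and the share of each in that sum in percent (right), for each of the 3 NC and 3 shPRMT6 libraries. SDC4 made up 72.8% of the sum on average in NC and 51.6% in shPRMT6, and the share of SDC2 went from 7.64% to 21.5% while its level went from 12.7 to 15.9 FPKM; SDC4 was chosen from this contrast, so the sum and shares are a description.

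The sum of the syndecans and every share of it rest on SDC4, the largest part of the sum and a gene chosen from this contrast, so they are a description. The summed level was 166 ± 6.52 FPKM in NC and 74.0 ± 3.53 FPKM in shPRMT6 (SD, n = 3). SDC4 held 72.8% ± 0.61 of that sum in NC and 51.6% ± 3.18 in shPRMT6 (SD, n = 3). The share of SDC2 was 7.64% ± 0.87 in NC and 21.5% ± 1.45 in shPRMT6, and that of SDC1 was 16.1% ± 1.22 and 19.6% ± 0.72 (SD, n = 3), while their levels went from 12.7 to 15.9 FPKM for SDC2 and from 26.8 to 14.5 FPKM for SDC1. The shares of both rose as SDC4, and with it the sum, fell. SDC3 held 3.22% to 3.65% in NC and 1.91%, 9.61% and 10.5% in shPRMT6 replicates 1, 2 and 3.

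Among the glypicans, GPC1 (a glypican of many adult tissues and of gliomas; chr2:240435671-240468078) was the more abundant, at 4.98, 4.28 and 5.76 FPKM in NC and 4.14, 3.89 and 3.75 FPKM in shPRMT6. The groups did not overlap, although NC replicate 2 lay close to shPRMT6 replicate 1. The log2 fold change was -0.36 (SE 0.12, edgeR adjusted p = 0.0849), which did not pass. Without NC replicate 2 it was -0.46 and passed (edgeR adjusted p = 0.0279).

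GPC6 (a glypican known from skeletal growth; chr13:93226842-94407401) stood at 2.78, 3.82 and 3.62 FPKM in NC and at 3.16, 3.57 and 3.47 FPKM in shPRMT6. The groups overlapped, with a log2 fold change of -0.01 (SE 0.13, edgeR adjusted p = 0.966). Exons of an antisense gene, AL354811.1, cover 7.36% of its exon bases, and the use of strand in the counting is not given in the sources used here.

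GPC3, the glypican of fetal liver, had 4 counts in shPRMT6 replicate 2 and 0 counts in the other 5 libraries. GPC4 had 7 counts in NC replicate 3, 4 in shPRMT6 replicate 3 and 0 in the others. Both were at the floor of the assay in U87 cells, and no difference between the groups was detectable at these counts. GPC2 and GPC5, the remaining glypicans, did not exceed 0.185 and 0.318 FPKM in any library. Their log2 fold changes of -1.08 (SE 0.34) and -0.25 (SE 0.40) did not pass (edgeR adjusted p = 0.0778 and 0.719). GPC2 passed in 1 of 13 alternatives, the filter of at least 10 counts in every library (edgeR adjusted p = 0.041). GPC1 and GPC6 together therefore supplied nearly all glypican transcripts, with GPC1 at 56.7% ± 6.16 of the summed glypican FPKM in NC and 51.6% ± 3.24 in shPRMT6 (SD, n = 3).

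HSPG2 (perlecan, the large heparan sulfate proteoglycan of basement membranes; chr1:21822245-21937297) had 5046, 9861 and 7682 counts in NC and 2976, 2809 and 3186 in shPRMT6. In FPKM the values were 4.15, 6.02 and 5.77 in NC, and 2.18, 2.13 and 2.20 in shPRMT6. NC replicate 1 was lower than the other NC libraries but still above every shPRMT6 library. The shPRMT6 mean of the scaled counts was 40.6% of the NC mean, a log2 fold change of -1.30 (SE 0.14), given as a description. Exons of LDLRAD2 on the opposite strand cover 11.7% of its exon bases.

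AGRN (agrin, the organiser of the neuromuscular junction that also occurs in the brain's vascular matrix; chr1:1020123-1056118) was measured at 18.0, 18.7 and 21.5 FPKM in NC and at 16.4, 16.4 and 16.9 FPKM in shPRMT6. Every shPRMT6 library lay below every NC library, by a small margin. The log2 fold change of -0.23 (SE 0.07, edgeR adjusted p = 0.0678) did not pass, in this fit or in any of 15 alternatives. AGRN overlaps AL645608.5 on the same strand, and 2.39% of its 75-base stretches occur in another gene. COL18A1, the core of the third basement membrane proteoglycan with heparan sulfate, collagen XVIII, stayed below 0.1 FPKM in every library (edgeR adjusted p = 0.317).

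**Figure D3:**
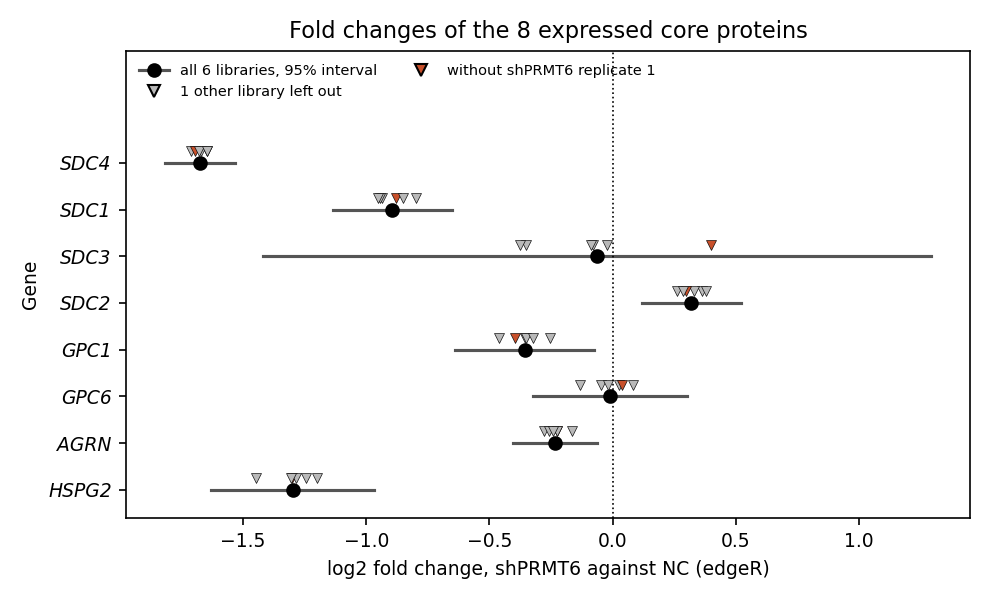
Log2 fold change of shPRMT6 against NC (edgeR) for the 8 fitted members, with the 95% interval over all 6 libraries (black) and the value with 1 library left out (triangles, red for shPRMT6 replicate 1). The interval of SDC3 runs from -1.42 to 1.29, and its value without shPRMT6 replicate 1 is 0.40; SDC4 and HSPG2 were chosen from this contrast, so their place is a description.

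Of 9 fitted genes in a list of 10 other proteins that carry heparan sulfate at times or always, 1 was lower and none was higher. This was 11.1% called, beside 18.6% over all fitted genes. The gene called was SRGN (serglycin, the proteoglycan of secretory granules), at 44.7, 41.3 and 42.9 FPKM in NC and 24.8, 24.2 and 22.0 FPKM in shPRMT6, with no overlap. Its log2 fold change was -0.87 (SE 0.08, edgeR adjusted p = 0.00144), and it passed in all 15 alternative fits. CD44, the hyaluronan receptor and the most abundant of this list, ranged over the same values in both groups (38.3 to 54.3 FPKM in NC and 38.6 to 51.9 FPKM in shPRMT6).

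Chain assembly starts with a short sugar linker, for which 7 genes were listed and fitted. Of these, 3 were lower and 1 was higher (57.1% called, beside 18.6% over all fitted genes), with a median log2 fold change of -0.11. XYLT1, which adds the first xylose, was at 6.93, 7.65 and 7.04 FPKM in NC and 5.12, 5.19 and 5.11 FPKM in shPRMT6 (log2 fold change -0.49, SE 0.06, edgeR adjusted p = 0.0038). It passed in all 15 alternative fits.

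The galactosyltransferases of the linker, B4GALT7 (log2 fold change -0.62, SE 0.14, edgeR adjusted p = 0.0282) and B3GALT6 (-0.39, SE 0.10, edgeR adjusted p = 0.042), were lower too. With libraries left out in turn these calls were less firm: that of B4GALT7 was kept only without NC replicate 2 (otherwise adjusted p 0.0541 to 0.0912), and that of B3GALT6 was lost in every case (adjusted p 0.0512 to 0.127). PXYLP1, a phosphatase that acts on the linker xylose, was higher (0.34, SE 0.09, edgeR adjusted p = 0.0492), a call also kept only without NC replicate 2 (otherwise adjusted p 0.0842 to 0.138) and lost in 6 of 9 other alternatives. B3GAT3, which adds the closing glucuronic acid and was the most abundant of the list, did not pass (0.17, edgeR adjusted p = 0.153).

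Chain polymerisation is carried out by the exostosins. Of 4 fitted genes of 5, only 1 was called, and it was lower (25% called, beside 18.6% over all fitted genes). This was EXTL3, which starts the heparan sulfate chain, with 3.99, 4.18 and 4.65 FPKM in NC and 2.97, 2.97 and 2.87 FPKM in shPRMT6. Its log2 fold change was -0.55 (SE 0.07, edgeR adjusted p = 0.00462), and it passed in all 15 alternative fits. EXT1, a subunit of the polymerase and the most abundant of the list, was nearly the same in all libraries (19.9 to 20.8 FPKM in NC and 20.2 to 20.4 FPKM in shPRMT6).

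The chain is then sulfated and epimerised by a list of 16 genes, of which 10 were fitted, 1 was higher and none was lower (10% called, beside 18.6% over all fitted genes). The gene called was HS6ST3, a 6-O-sulfotransferase, which was below 0.3 FPKM in every library and is named here after its values were seen. HS3ST3A1, a 3-O-sulfotransferase, was the most abundant, at 17.8 to 18.7 FPKM in NC and 16.9 to 18.1 FPKM in shPRMT6 (log2 fold change -0.06, edgeR adjusted p = 0.514).

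Genes for the supply of sugar nucleotides and of sulfate donor numbered 9, all fitted, of which 2 were higher and none was lower (22.2% called, beside 18.6% over all fitted genes). SLC35B3, a Golgi transporter of the sulfate donor PAPS, stood at 7.34, 7.59 and 7.50 FPKM in NC and 12.6, 12.1 and 11.9 FPKM in shPRMT6. All shPRMT6 libraries were above all NC libraries, with a log2 fold change of 0.70 (SE 0.07, edgeR adjusted p = 0.00187) that passed in all 15 alternative fits. PAPSS2, a PAPS synthase, rose by 0.38 on the log2 scale (SE 0.09, edgeR adjusted p = 0.0315), a call kept only without NC replicate 1 when single libraries were left out (otherwise adjusted p 0.0507 to 0.112). PAPSS1, the more abundant synthase, did not pass (0.07, edgeR adjusted p = 0.501).

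Of 12 genes that edit or release the chains and core proteins at the cell surface, 8 were fitted, 1 was lower and 1 was higher (25% called, beside 18.6% over all fitted genes). The endosulfatase SULF1 had no counts in any library, and SULF2 stayed at or below 0.0513 FPKM. MMP2, a gelatinase and the most abundant of the list, was at 213, 211 and 218 FPKM in NC and 265, 262 and 266 FPKM in shPRMT6 (log2 fold change 0.30, SE 0.04, edgeR adjusted p = 0.00502, passing in all 15 alternative fits). MMP14, a membrane protease that can cut syndecans, fell by 0.20 on the log2 scale (SE 0.05, edgeR adjusted p = 0.0276). That call was lost with NC replicate 3 or any 1 of the shPRMT6 libraries left out (adjusted p 0.0741 to 0.117) and with DESeq2.

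All 8 listed enzymes of lysosomal heparan sulfate breakdown were fitted, and 1 was lower and 3 were higher (50% called, beside 18.6% over all fitted genes). SGSH, the sulfamidase, stood at 1.56, 1.33 and 1.46 FPKM in NC and 2.51, 2.32 and 2.53 FPKM in shPRMT6 (log2 fold change 0.75, SE 0.10, edgeR adjusted p = 0.00472). HGSNAT, the acetyltransferase of the same pathway, rose by 0.44 (SE 0.07, edgeR adjusted p = 0.00922), and both passed in all 15 alternative fits. GUSB, the glucuronidase, was lower (-0.48, SE 0.10, edgeR adjusted p = 0.0216). The GUSB call was lost without NC replicates 2 or 3 or shPRMT6 replicates 1 or 2 (adjusted p 0.0508 to 0.0709).

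The 6 lists of heparan sulfate chains, from linker to lysosome, held 57 genes, of which 46 were fitted, 6 were lower and 8 were higher. Of the fitted genes 30.4% were called, beside 18.6% over all genes, and their median log2 fold change was 0.01, beside -0.01 over all genes. The lists were chosen with earlier results known, so nothing is read from the difference in shares.

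**Figure D4:**
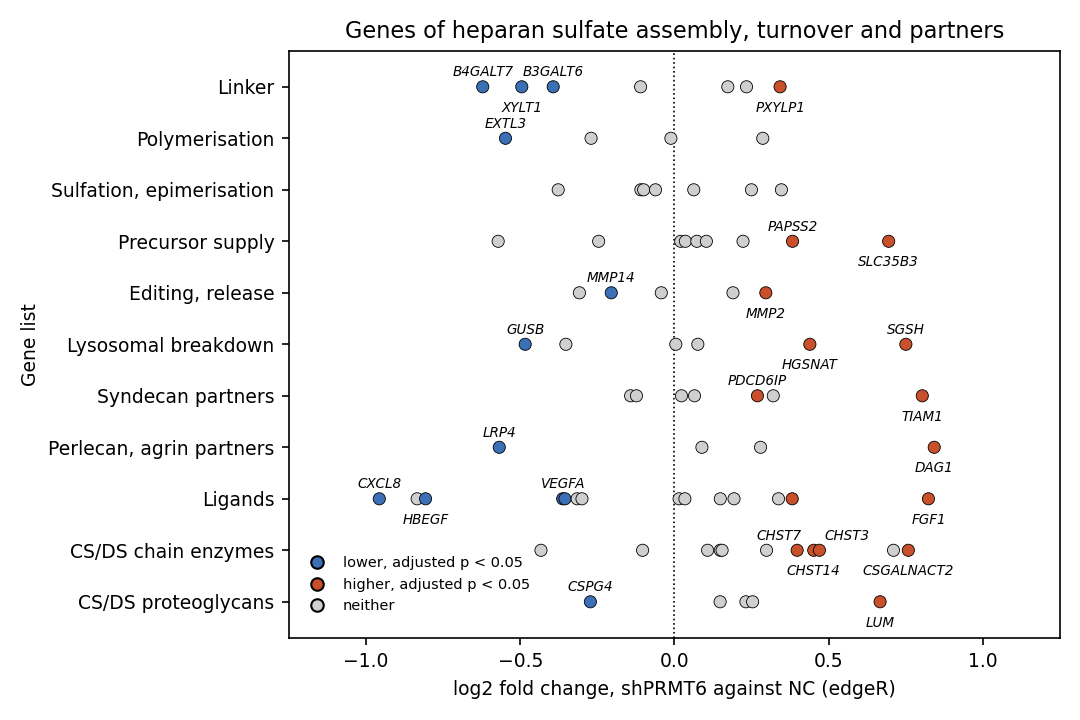
Log2 fold change of shPRMT6 against NC (edgeR) for fitted genes with a mean of at least 1 FPKM in either group, in rows by list. CS/DS stands for chondroitin and dermatan sulfate, and blue and red mark genes past an adjusted p of 0.05. LUM, drawn in the row of CS/DS proteoglycans, is known as a keratan sulfate proteoglycan. The lists drawn here hold called genes on both sides of 0, except that the called genes of polymerisation were lower and those of precursor supply, syndecan partners and CS/DS chain enzymes were higher, and that no gene shown for sulfation and epimerisation was called.

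Intracellular partners of the syndecans numbered 8, all fitted, of which 2 were higher and none was lower (25% called, beside 18.6% over all fitted genes). TIAM1, a Rac activator bound by syndecans, stood at 1.24, 1.37 and 1.32 FPKM in NC and 2.31, 2.35 and 2.24 FPKM in shPRMT6 (log2 fold change 0.80, SE 0.08, edgeR adjusted p = 0.00196, passing in all 15 alternative fits). PDCD6IP (ALIX, which acts with syntenin in exosome formation) rose by 0.27 (SE 0.07, edgeR adjusted p = 0.0416), a call kept only without NC replicate 2 when libraries were left out singly (otherwise adjusted p 0.0818 to 0.137). SDCBP, which encodes syntenin itself, varied widely within both groups, at 83.5, 44.4 and 42.5 FPKM in NC and 69.4, 74.2 and 36.0 FPKM in shPRMT6 (log2 fold change 0.07, SE 0.36, edgeR adjusted p = 0.923).

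Among 9 partners of perlecan and agrin, 4 were fitted, 1 was lower and 1 was higher (50% called, beside 18.6% over all fitted genes). LRP4, the agrin receptor, was at 4.59, 4.72 and 5.08 FPKM in NC and 3.19, 3.14 and 3.43 FPKM in shPRMT6 (log2 fold change -0.57, SE 0.07, edgeR adjusted p = 0.00413), and passed in all 15 alternative fits. DAG1 (dystroglycan, a receptor for both) was at 1.67, 1.89 and 2.63 FPKM in NC and 3.84, 4.07 and 3.27 FPKM in shPRMT6 (log2 fold change 0.84, SE 0.18, edgeR adjusted p = 0.0221). The DAG1 call was lost without NC replicates 1 or 2 or shPRMT6 replicates 1 or 2 (adjusted p 0.0562 to 0.0782). ECM1, a perlecan-binding matrix protein and the most abundant of the list, did not pass (0.09, edgeR adjusted p = 0.579).

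Of 19 ligands that bind heparan sulfate, 16 were fitted, 4 were lower and 2 were higher (37.5% called, beside 18.6% over all fitted genes). The lists were chosen with earlier results known, so nothing is read from such shares. CXCL8, a chemokine and the most abundant of them, was at 915, 850 and 836 FPKM in NC and 467, 444 and 436 FPKM in shPRMT6 (log2 fold change -0.96, SE 0.06, edgeR adjusted p = 0.000504). HBEGF, a growth factor named for its binding to heparin, was at 14.2, 14.0 and 14.0 FPKM in NC and 8.35, 7.80 and 8.14 FPKM in shPRMT6 (-0.81, SE 0.07, edgeR adjusted p = 0.00114). VEGFA, the endothelial growth factor, fell by 0.36 (SE 0.04, edgeR adjusted p = 0.00246), and FGF1 rose by 0.82 (SE 0.10, edgeR adjusted p = 0.00321). These 4 passed in all 15 alternative fits. The remaining calls were WNT5A (lower) and TFPI (higher), named after their values were seen. WNT5A lost its call without shPRMT6 replicate 1 or 2 (adjusted p 0.0509 to 0.0516) and TFPI without shPRMT6 replicate 2 (adjusted p 0.0504). FGF2 and FGF5, also named after their values were seen, did not pass. FGF2, more abundant than FGF1, was at 16.9, 22.6 and 33.1 FPKM in NC and 9.63, 15.5 and 15.7 FPKM in shPRMT6. Its log2 fold change was -0.83 (SE 0.28, edgeR adjusted p = 0.089), and that of FGF5 was 0.34 (SE 0.13, edgeR adjusted p = 0.123).

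For comparison, the list of enzymes for chondroitin and dermatan sulfate, which are built on the same linker, held 16 genes, of which 15 were fitted, 4 were higher and none was lower. The median log2 fold change of the list was 0.33, the value of CHST12, which did not pass (edgeR adjusted p = 0.51). In NC replicate 2, CHST12 and DSE lay more than 2-fold below the lowest of the other 5 libraries. Both are named after their values were seen, and DSE did not pass either (log2 fold change 0.71, edgeR adjusted p = 0.177). Among all fitted genes 9.51% were higher, 9.06% were lower and the median was -0.01, and the list was not tested against them. CSGALNACT2, which starts the chondroitin chain, stood at 14.0, 14.8 and 14.1 FPKM in NC and 23.1, 25.3 and 24.5 FPKM in shPRMT6 (log2 fold change 0.76, SE 0.06, edgeR adjusted p = 0.00114, passing in all 15 alternative fits). The sulfotransferases CHST14 (0.45), CHST3 (0.47) and CHST7 (0.40) also passed (edgeR adjusted p = 0.0168, 0.0355 and 0.0282). With libraries left out in turn, CHST14 lost the call without NC replicate 3 or shPRMT6 replicates 1 or 3 (adjusted p 0.0617 to 0.0668), CHST3 in every case but NC replicate 2 (0.0723 to 0.109), and CHST7 in every case (0.0534 to 0.106). CHPF2, the most abundant of the list, did not pass (0.15, edgeR adjusted p = 0.556).

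Of 12 core proteins listed for chondroitin or dermatan sulfate, 10 were fitted, 1 was lower and 1 was higher (20% called, beside 18.6% over all fitted genes). CSPG4 (NG2, a proteoglycan of glioma and progenitor cells) was at 18.3, 20.5 and 21.7 FPKM in NC and 17.0, 16.8 and 16.6 FPKM in shPRMT6 (log2 fold change -0.27, SE 0.07, edgeR adjusted p = 0.0374). LUM (lumican, of the collagen matrix) rose by 0.67 (SE 0.15, edgeR adjusted p = 0.0257). Lumican is known as a keratan sulfate proteoglycan, so no listed carrier of chondroitin or dermatan sulfate was called higher. CSPG4 kept its call only without NC replicate 1 (otherwise adjusted p 0.0732 to 0.118), and LUM only without shPRMT6 replicate 2 (otherwise adjusted p 0.0563 to 0.0798). APLP2, the most abundant, was at 56.9 to 62.8 FPKM in NC and 60.7 to 86.3 FPKM in shPRMT6 and did not pass (edgeR adjusted p = 0.289).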

How the data were processed

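Total RNA of 3 NC and 3 shPRMT6 U87 samples had been sequenced. For every library the authors deposited unnormalized read counts per gene. They also deposited FPKM values, scaled by the authors to transcript length and library size, where 0.0001 stands for no counts. With the summed gene counts as library size, they imply lengths 1.06 to 1.31 times the exon length of GENCODE 29 for the expressed members. This ratio mixes length with library size, so it does not measure transcript length alone. The submitters' processing notes name HISAT2, HTSeq 0.13.5 and GRCh38, without roles. The labels name Trizol for RNA extraction and the study's methods an RNeasy kit. Symbols were found for 60401 of 60612 rows, and 58394 rows are in GENCODE 29 (GRCh38), which gave gene positions.

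Counts were tested with edgeR 4.0.16 in R 4.3.3 (quasi-likelihood test after TMM scaling and filterByExpr, without a replicate block) over 18106 genes with Benjamini-Hochberg adjustment and a threshold of 0.05. Scaled counts are CPM after TMM, and errors are SD over 3 libraries. The labels do not tie libraries to separate cultures, so p-values measure the spread between these libraries, which may be technical. Depth was 56388161 to 75887696 counts per library.

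The members and the gene lists were chosen with earlier results of these data known, so no list was tested. Named genes were all members, GPC2, GPC5, COL18A1, PRMT6 and, from each other list except the marker lists, the most abundant gene and up to 4 genes with the smallest p among those past the threshold with a mean of at least 1 FPKM in either group. For 1 gene that the rule gave, no result is reported here, though counts over lists include it. Alternatives were DESeq2 1.42.0, no scaling factors, upper quartile factors, filters of at least 10 counts in every library or 1 in any, a replicate block, limma 3.58.1 on log2(FPKM + 1) and log2(FPKM + 0.1), a threshold of 0.01, and each library left out in turn. The programs were tested on simulated data. Per-gene lengths from the longest coding transcript and the count of genes far outside the other libraries were added after seeing the data. Promoter windows came from RefSeq with Python 3.11.15.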

Additional observations from a re-analysis of the deposited data

How the results depend on the processing

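SDC1 (-0.95 to -0.80) kept its direction in all 15 alternative fits. SDC4 (-1.71 to -1.64) and HSPG2 did so too, but both were chosen from this contrast, so their values are a description only. HSPG2 stood at -0.98 under limma on log2(FPKM + 1), with or without the FPKM filter, where the pseudocount shrinks low levels. SDC2 lost its call at 0.32 with the filter of at least 1 count in any library, at 0.32 with the replicate block and at 0.31 with limma without the FPKM filter, and ranged from 0.26 to 0.38 with single libraries left out. SDC3 ranged from -0.37 to 0.40, GPC1 from -0.46 to -0.25 and GPC6 from -0.13 to 0.080 with single libraries left out. GPC6 was 0.0043 with limma on log2(FPKM + 1), filtered or not, and 0.0077 with a pseudocount of 0.1. With single libraries left out, 3 genes that never passed also changed sign: GPC5 (-0.60 to 0.013), EXT1 (-0.033 to 0.010) and SDCBP (-0.12 to 0.46). Over all genes the 1641 lower and 1721 higher calls became 908 and 950 with the replicate block and 647 and 673 at an adjusted p of 0.01. Without single libraries they ranged from 857 (without shPRMT6 replicate 2) to 1522 (without NC replicate 2) and from 898 to 1661 (the same libraries), with falls of more than 1.5 times also without NC replicate 3 (928 and 1011), shPRMT6 replicate 1 (919 and 952) or shPRMT6 replicate 3 (920 and 938). The 12 lists together held 108 fitted genes, of which 28.7% were called, beside 18.6% over all genes. Their 13 lower and 18 higher calls became 7 and 7 at 0.01, and 8 higher with the block. Without single libraries, the range for these lists was 7 to 12 and 8 to 18. Of 30 called genes that the naming rule gave, other than SDC4, HSPG2 and PRMT6, the call was lost for 15 with the block, 9 with limma without the FPKM filter, 7 with the filter of at least 1 count in any library and at most 1 under each other setting with all libraries. PRMT6 lost its call with the block too (adjusted p = 0.0803). Same-numbered libraries did not deviate together over all fitted genes (correlations -0.02, -0.02 and -0.03). Such values cannot tell whether a batch was shared for some genes, and the sources name no pairing. In counts instead of FPKM, SDC4 held 62.6% of the syndecans in NC and 39.2% in shPRMT6, and SDC2 10.3% and 25.5%; the lengths of the genes differ. The cause of the other changes was not tested. At the depth of these libraries GPC3 and GPC4 could not be compared.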
